A study of Mus musculus with 36 samples.

Results

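The 41 genes described here encode effectors that interferons switch on, and were taken as a list of gene names. All 41 were found once in each of the 3 deposited expression tables, which list 56026 gene models for bone marrow, 56575 for the B16 tumours and 57252 for the MC38 tumours. RNA sequencing covered 36 libraries of wild-type mouse cells in 12 groups of 3. Bone marrow gave 2 populations, monocytes and granulocyte-macrophage progenitors (GMP). Tumours gave the other two, tumour-associated macrophages (TAM) of B16-F10, a melanoma line, and of MC38, a colon carcinoma line. The treatments were phosphate-buffered saline (PBS), OMV-SIRP and OMV-SIRP-G. OMV stands for outer membrane vesicle, a particle shed by bacteria, and the labels do not spell the rest of either name out. The design text states that material of 3 samples per group was pooled, and whether the 3 libraries within a group are separate animals is not stated. P-values therefore measure only the spread between these libraries, which may be technical.

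Interferons are secreted proteins that cells make when they sense viral or bacterial nucleic acid and other microbial products. Type I interferons bind the receptor Ifnar1/Ifnar2, whose kinases Jak1 and Tyk2 pass the signal to a transcription factor complex with Stat2 and Irf9 that binds interferon-stimulated response elements in promoters. The genes switched on in this way include RNA-binding and RNA-degrading proteins, sensors of foreign nucleic acid, the ubiquitin-like protein Isg15 with its enzymes, and membrane proteins that keep viruses from entering or leaving cells. Myeloid cells keep many of them at a low tonic level in the absence of infection.

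The core of such a response element was searched for as GAAANNGAAA (TTTCNNTTTC on the other strand) in 300 bases around each start site, 250 before and 50 after, taken from RefSeq on GRCm38.p6. Of the 41 genes, 30 had a promoter in that table and 16 of these (53.3%) held a match on either strand, against 3.99% of all 27025 gene symbols and 3.44% of all 32851 promoters of the same length. A match describes the letters and does not show that a factor binds there. The sequences below show how these elements are arranged in 7 genes named in the results, each with 20 bases on either side. All 7 windows lie upstream of the gene as drawn in the deposited tables, outside its exons. Each reads 5′ to 3′ on the gene's own strand, with the matches in capitals. The Isg15 window (chr4:156200855-156200916, minus strand) holds 3 overlapping matches and the Bst2 window (chr8:71537567-71537622, minus strand) 2 overlapping ones. The windows of Ifit1 (chr19:34640765-34640833, plus strand) and Ifit3 (chr19:34583353-34583436, plus strand) hold 2 separate matches each, all on the other strand. Rsad2 (chr12:26456543-26456592, minus strand), Oas3 (chr5:120777705-120777754, minus strand) and Ifi211 (chr1:173913054-173913103, minus strand) hold 1 match each. The 84 bases of the Ifit3 window stand unchanged before its near copy Ifit3b (chr19:34607749-34607832, plus strand).
Isg15: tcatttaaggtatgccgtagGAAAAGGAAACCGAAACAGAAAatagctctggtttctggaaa
Bst2: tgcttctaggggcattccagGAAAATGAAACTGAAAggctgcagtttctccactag
Ifit1: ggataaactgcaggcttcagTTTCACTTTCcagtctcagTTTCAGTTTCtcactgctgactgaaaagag
Ifit3: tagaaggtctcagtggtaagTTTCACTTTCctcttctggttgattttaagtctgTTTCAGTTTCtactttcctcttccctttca
Rsad2: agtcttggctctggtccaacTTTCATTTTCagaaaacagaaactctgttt
Oas3: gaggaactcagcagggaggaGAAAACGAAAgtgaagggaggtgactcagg
Ifi211: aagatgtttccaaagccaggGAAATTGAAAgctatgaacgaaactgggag

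Values are FPKM, fragments per kilobase of exon scaled to sequencing depth, and the 3 values of a group are given in the order of the replicate numbers 1, 2 and 3. A log2 change is the difference between group means of log2(FPKM + 1) ± its standard error (SE), which makes changes at low FPKM look smaller than they are. A gene is described as rising or falling where limma gave a p below 0.05 after Benjamini-Hochberg adjustment over every gene tested in that comparison. Counts without adjustment were made for the set alone, not over all genes. Reads recovered per library ran from 13036567 to 19822660. The correlation of log2(FPKM + 1) over all genes between replicates was lowest in MC38 TAM, at 0.81 to 0.95. It was 0.929 to 0.976 in B16 TAM, 0.925 to 0.988 in monocytes and 0.98 to 0.989 in GMP.

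Among untreated cells the 41 genes spanned a wide range of levels. After PBS, Ifitm3, a membrane protein that blocks virus entry, was the highest of the 41 in all 4 populations, at a mean of 1858 FPKM in monocytes, 297 in GMP, 447 in MC38 TAM and 426 in B16 TAM. The lowest was Ifit3b in GMP (0.140 FPKM), monocytes (0.509) and MC38 TAM (1.53), and Ifi44 in B16 TAM (0.740). The median gene stood at 8.88 FPKM in GMP, 18.9 in monocytes, 14.3 in MC38 TAM and 8.94 in B16 TAM. GMP and monocytes share a table, and there 40 of the 41 genes had a higher PBS mean in monocytes. The same count was not made over all genes. The monocyte mean includes the library PBS 2, described below, in which short genes were high. Between the tables no test was made, because each was scaled separately.

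Several of the genes lie in clusters. In the deposited tables, on GRCm38, Ifit3 (ENSMUSG00000074896, chr19:34583531-34588731) and Ifit1 (chr19:34640871-34650009) lie on chromosome 19, and Oas2 (ENSMUSG00000032690, chr5:120730333-120749853) on chromosome 5 with Oas1a, Oas1g and Oas3. Of the other genes followed in every library, Isg15 (ENSMUSG00000035692) spans chr4:156199455-156200796, Usp18 (ENSMUSG00000030107) chr6:121245906-121270917, Mx1 (ENSMUSG00000000386) chr16:97447035-97462907 and Rsad2 (ENSMUSG00000020641) chr12:26442746-26456452. Zbp1 (ENSMUSG00000027514) spans chr2:173206612-173218923, Bst2 (ENSMUSG00000046718) chr8:71534255-71537456 and Ifitm3 (ENSMUSG00000025492) chr7:141009586-141010770.

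Some rows share reads with neighbours or copies and are uncertain to that extent. Dtx3l and Parp9 overlap on opposite strands, Ifi203 and Ifi211 each overlap Mndal on the same strand, and Rtp4 overlaps Masp1 on the other strand. Ifit3 and Ifit3b, Oas1a and Oas1g, and the Ifi200 family (Ifi203, Ifi204, Ifi211) are close copies. Whether counting used strand is not given in the sources used here. Mx1 and Mx2 carry the biotype polymorphic pseudogene in the tables, since many laboratory strains have defective copies of these GTPases.

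Scaling each library to its total reads in place of the deposited scaling moved all genes together in some comparisons. The median log2 change of all genes after OMV-SIRP went from -0.028 to 0.11 in monocytes and from 0.028 to -0.27 in MC38 TAM, and after OMV-SIRP-G from 0.069 to -0.079 in MC38 TAM (from 0.054 to 0.21 against OMV-SIRP). The share of called genes that were higher went from 58.6% to 31.0% in GMP, from 36.0% to 62.4% in monocytes and from 67.9% to 29.9% in MC38 TAM after OMV-SIRP, and from 65.6% to 52.0% in MC38 TAM after OMV-SIRP-G. For OMV-SIRP-G against OMV-SIRP it went from 45.2% to 68.9% in GMP, from 65.2% to 43.0% in monocytes and from 38.9% to 58.3% in MC38 TAM. The direction of the set's median was the same under both scalings in all 12 comparisons.

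**Figure D1:**
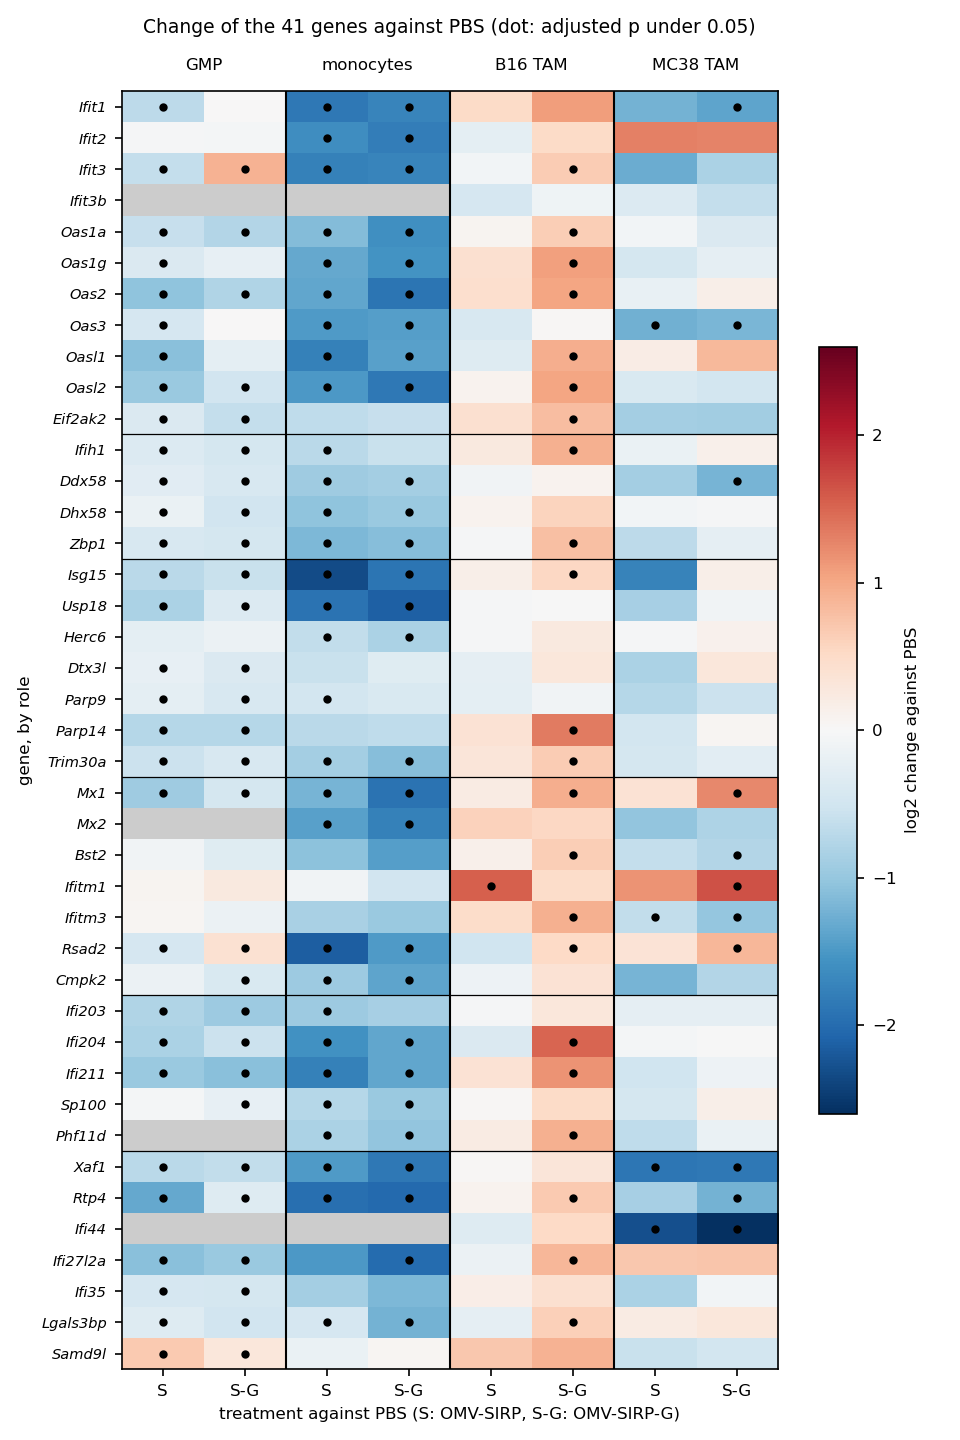
Log2 change of each of the 41 genes (vertical axis, grouped by role) against PBS, for OMV-SIRP (S) and OMV-SIRP-G (S-G) in each population (horizontal axis). Blue is lower and red is higher than PBS, a dot marks an adjusted p under 0.05 and grey marks genes below the filter; the 2 bone marrow populations are mostly blue and the B16 TAM column for OMV-SIRP-G is mostly red.

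In GMP, the progenitors of granulocytes and macrophages, OMV-SIRP lowered most of the genes. Of the 37 that passed the filter (Ifit3b, Mx2, Phf11d and Ifi44 did not), 29 fell and 1 rose, where 7.52% of all tested genes fell and 10.6% rose. The median log2 change was -0.43, against 0.015 over all 12287 genes tested. The fall took in 9 of 10 tested RNA-binding and RNA-degrading effectors, all 4 nucleic acid sensors, 6 of 7 ubiquitin-like and ADP-ribosylation genes, 3 of 4 DNA-binding and nuclear body genes, 2 of 6 GTPases, membrane and nucleotide effectors, and 5 of 6 other interferon-induced genes. The 7 genes without a call ranged from -0.26 (Herc6) to 0.07 (Ifitm1). In these bulk libraries, fewer cells of a type and less RNA per cell cannot be told apart.

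Among the RNA effectors of GMP, Oas2, an oligoadenylate synthetase whose product activates RNase L, stood at 12.2, 10.7 and 9.48 FPKM after PBS and at 4.299, 4.51 and 5.43 after OMV-SIRP, a log2 change of -1.04 ± 0.10 (adjusted p = 0.000136). The 2 groups did not overlap. After OMV-SIRP-G it stood at 6.09, 5.38 and 6.03 (-0.78 ± 0.10, adjusted p = 0.000968), again below every PBS library. Oasl1, a synthetase-like protein, fell from 2.53, 2.796 and 2.94 FPKM to 0.859, 0.723 and 0.749 after OMV-SIRP (-1.08 ± 0.10), but its OMV-SIRP-G libraries (2.68, 1.89 and 1.99) overlapped PBS. Ifit3, a partner of other RNA-binding Ifit proteins, was the gene on which the 2 treatments parted most. It was at 0.762, 1.102 and 0.873 FPKM after PBS, 0.223, 0.288 and 0.20997 after OMV-SIRP and 3.096, 2.31 and 2.398 after OMV-SIRP-G, so that the PBS libraries lay between the treated groups. Its log2 changes against PBS were -0.62 ± 0.12 (adjusted p = 0.00694) and 0.91 ± 0.12 (adjusted p = 0.00114). Ifit3 passed the filter only through its OMV-SIRP-G libraries, where it was high, so these tests are not independent of the filter. Its near copy Ifit3b, below the filter, was at 0.133, 0.198 and 0.0879 FPKM after PBS, 0.0974, 0.0943 and 0.0305 after OMV-SIRP and 1.17, 0.741 and 1.26 after OMV-SIRP-G, and the 2 rows may share reads.

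The nucleic acid sensors of GMP moved by smaller amounts. Zbp1, a sensor of Z-form nucleic acid, was at 5.26, 5.25 and 5.26 FPKM after PBS, 3.56, 3.44 and 4.08 after OMV-SIRP and 3.56, 3.43 and 3.73 after OMV-SIRP-G, with both treated groups below PBS (-0.42 ± 0.06 and -0.45 ± 0.06). Dhx58, a helicase that modulates RNA sensing, stood at 13.2, 12.3 and 13.4 FPKM after PBS, 11.6, 10.9 and 11.5 after OMV-SIRP and 8.84, 8.68 and 9.06 after OMV-SIRP-G. It had the smallest called fall after OMV-SIRP (-0.18 ± 0.05) and fell further after OMV-SIRP-G (-0.50 ± 0.05).

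Of the ubiquitin-like system in GMP, Isg15 itself was at 12.9, 19.5 and 17.1 FPKM after PBS, 8.31, 11.4 and 9.47 after OMV-SIRP (-0.70 ± 0.14) and 10.7, 10.6 and 10.6 after OMV-SIRP-G (-0.57 ± 0.14). Every treated library lay below every PBS library. Usp18, the protease that removes Isg15 and dampens the interferon receptor, stood at 3.15, 3.69 and 3.65 FPKM after PBS, 1.396, 1.44 and 1.79 after OMV-SIRP (-0.82 ± 0.08) and 2.32, 2.64 and 2.53 after OMV-SIRP-G (-0.36 ± 0.08). Dtx3l and Parp9, which work as a complex of a ubiquitin ligase and an ADP-ribosyltransferase, showed 2 of the smallest called falls. Dtx3l was at 15.2, 15.2 and 15.9 FPKM after PBS, 14.1, 13.2 and 12.5 after OMV-SIRP (-0.21 ± 0.06) and 11.1, 11.5 and 12.2 after OMV-SIRP-G (-0.38 ± 0.06). Parp9 was at 9.58, 8.99 and 8.84 FPKM after PBS, 7.72, 7.01 and 7.76 after OMV-SIRP and 6.61, 6.65 and 6.63 after OMV-SIRP-G (-0.26 ± 0.05 and -0.41 ± 0.05). In both genes each treated group lay below PBS.

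The membrane and GTPase genes of GMP split. Mx1, a GTPase that traps viral nucleoprotein, was at 2.19, 2.35 and 2.14 FPKM after PBS, 0.785, 0.598 and 0.7099 after OMV-SIRP (-0.93 ± 0.09) and 1.595, 1.27 and 1.22 after OMV-SIRP-G (-0.45 ± 0.09). Rsad2, which makes a chain-terminating nucleotide, was at 2.49, 2.35 and 2.65 FPKM after PBS. It fell to 1.68, 1.57 and 1.52 after OMV-SIRP (-0.43 ± 0.07) and rose to 3.79, 3.72 and 3.296 after OMV-SIRP-G (0.40 ± 0.07), with no overlap among the 3 groups. The membrane proteins Bst2 and Ifitm3, by contrast, gave no call in either comparison with PBS. Bst2, which tethers budding virus, was at 53.8, 58.9 and 57.7 FPKM after PBS, 50.6, 51.2 and 58.1 after OMV-SIRP (-0.09 ± 0.10) and 53.6, 43.1 and 40.1 after OMV-SIRP-G (-0.32 ± 0.10, adjusted p = 0.0751). Ifitm3 was at 244, 314 and 333 FPKM after PBS, 296, 311 and 307 after OMV-SIRP and 270.5, 256 and 263 after OMV-SIRP-G (0.05 ± 0.10 and -0.16 ± 0.10).

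The DNA-binding genes and the remaining genes held several of the extremes in GMP. Ifi211 was at 6.44, 7.67 and 7.71 FPKM after PBS, 3.49, 3.56 and 2.67 after OMV-SIRP (-0.97 ± 0.11) and 2.55, 2.86 and 3.21 after OMV-SIRP-G (-1.09 ± 0.11). Ifi203 followed the same course, at 6.72, 6.12 and 5.35 FPKM after PBS, 3.39, 2.96 and 2.95 after OMV-SIRP and 2.63, 2.803 and 2.61 after OMV-SIRP-G (-0.78 ± 0.08 and -0.94 ± 0.08). Both genes belong to a family of cytosolic and nuclear DNA-binding proteins, and in both the treated groups lay below PBS. Sp100, a nuclear body protein, was at 34.3, 32.3 and 32.3 FPKM after PBS, 31.7, 33.1 and 30.5 after OMV-SIRP (-0.05 ± 0.05, adjusted p = 0.48) and 28.3, 28.4 and 27.8 after OMV-SIRP-G, where it fell (-0.22 ± 0.05). Rtp4, a chaperone of membrane receptors, had the largest fall after OMV-SIRP, from 6.34, 6.898 and 6.84 to 1.83, 2.27 and 2.06 FPKM (-1.33 ± 0.07, adjusted p = 4.71e-06), and stood at 5.34, 4.76 and 5.19 after OMV-SIRP-G (-0.34 ± 0.07). Ifi27l2a, a small interferon-induced membrane protein, was at 22.6, 29.7 and 36.4 FPKM after PBS, 13.4, 12.2 and 13.98 after OMV-SIRP (-1.09 ± 0.14) and 13.8, 13.96 and 15.1 after OMV-SIRP-G (-0.97 ± 0.14). Samd9l, a restraint on growth and translation in blood progenitors, went the other way. It was at 50.3, 47.8 and 43.1 FPKM after PBS, 76.2, 75.6 and 76.1 after OMV-SIRP (0.68 ± 0.07) and 62.5, 56.7 and 55.5 after OMV-SIRP-G (0.30 ± 0.07), with no overlap among the 3 groups.

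OMV-SIRP-G gave a like count in GMP, 25 of 37 lower and 3 higher (Ifit3, Rsad2 and Samd9l), against 5.22% and 6.76% of all tested genes. The median log2 change was -0.41, against 5.4e-05 over all genes. Compared directly with OMV-SIRP, 10 genes were higher and 4 lower after OMV-SIRP-G, where 6.7% and 8.12% of all genes were, and the median of the 37 was 0.0036, against -0.011 over all genes. Ifit3 (1.53 ± 0.12) and Rtp4 (1.00 ± 0.07) were the most raised in OMV-SIRP-G over OMV-SIRP, and Samd9l (-0.38 ± 0.07) and Dhx58 (-0.32 ± 0.05) the most lowered. Ifit3 passed the filter only through its OMV-SIRP-G libraries. Also higher were Ifit1 (0.69 ± 0.10), Oasl1 (0.84 ± 0.10), Rsad2 (0.83 ± 0.07), Mx1 (0.47 ± 0.09), Usp18 (0.46 ± 0.08), Oasl2 (0.45 ± 0.08), Oas3 (0.44 ± 0.09) and Ifi204 (0.27 ± 0.07), and also lower were Cmpk2 (-0.25 ± 0.06) and Sp100 (-0.17 ± 0.05). The call of Sp100 was lost without any 1 of the 6 libraries compared (limma adjusted p up to 0.149), that of Ifi204 without any 1 of 5 (up to 0.116) and that of Cmpk2 without any 1 of 4 (up to 0.0766). With a minimum of 5 FPKM, which left 27 of the genes tested, 4 were higher and 5 lower.

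With a single library left out, 4 falls after OMV-SIRP in GMP lost their call, in Lgals3bp, Dtx3l, Dhx58 and Oas1g, all of them without PBS 3 and also without OMV-SIRP 3 (adjusted p up to 0.122). After OMV-SIRP-G 6 calls were lost: Isg15 and Usp18 without any library but PBS 1, Mx1 and Rtp4 without PBS 2 among others, Samd9l without OMV-SIRP-G 1 and Sp100 without OMV-SIRP-G 3 (adjusted p up to 0.103). Markers of other cells moved in the same libraries. The summed FPKM of 10 neutrophil genes was 27464 to 38931 after PBS, 57378 to 59625 after OMV-SIRP, where all 10 rose, and 35958 to 37192 after OMV-SIRP-G, where 6 rose. The sum of 7 erythroid genes was 39.8 to 56.6 after PBS, 5.10 to 6.32 after OMV-SIRP and 5.21 to 6.46 after OMV-SIRP-G, and all 4 that could be tested fell. That of 7 B lineage genes was 20.9 to 26.5, 13.1 to 14.5 and 12.4 to 13.3 in the same order. The part of these markers in the result was not tested. The 8 markers of the progenitors themselves summed to 5365 to 6633 after PBS, 6085 to 6288 after OMV-SIRP and 6059 to 6510 after OMV-SIRP-G.

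**Figure D2:**
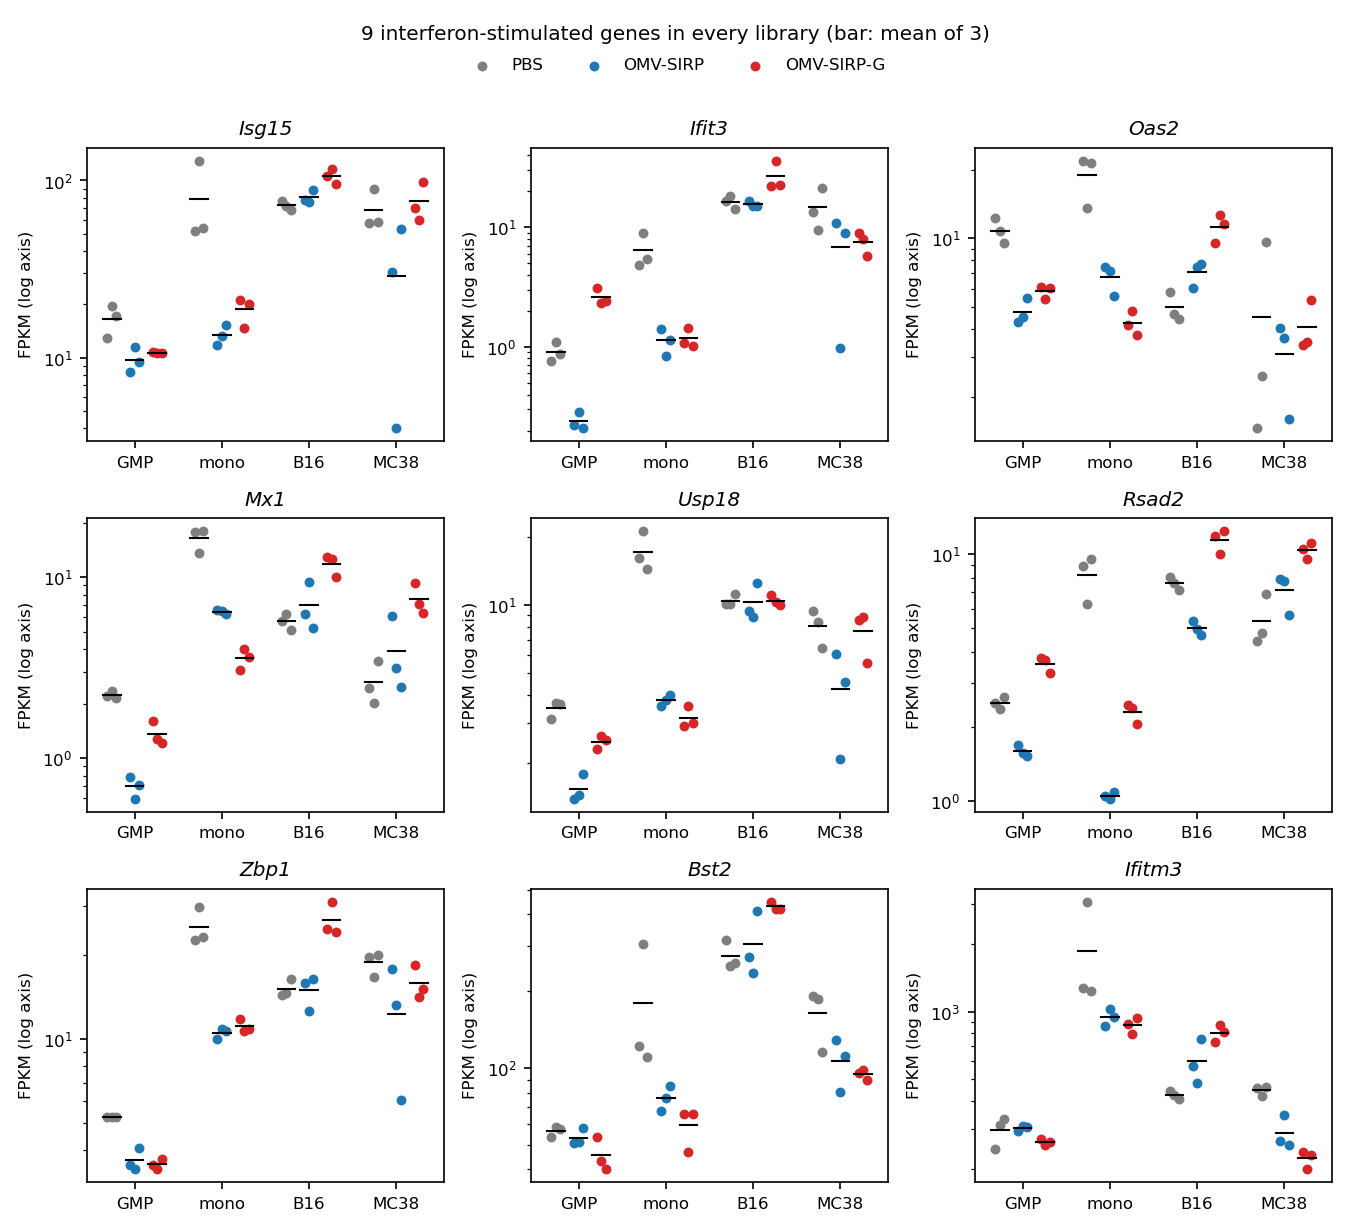
FPKM on a log axis of 9 of the genes in each of the 36 libraries, by population (mono, monocytes; B16 and MC38, tumour-associated macrophages), coloured by treatment, with bars at the mean of 3. In monocytes every treated library of the 9 genes sits below every PBS library, and in B16 TAM the OMV-SIRP-G libraries sit above PBS in 8 of them, Usp18 being the exception; levels are not comparable between the bone marrow and the tumour tables.

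In monocytes both treatments lowered most of the set. OMV-SIRP lowered 30 of the 39 genes tested (Ifit3b and Ifi44 were below the filter) and raised 0, where 5.46% of all tested genes fell and 3.07% rose. OMV-SIRP-G lowered 28 and raised 0, where 2.14% fell and 1.53% rose. By limma without adjustment (p under 0.05) 36 and 35 genes were lower and 0 higher, and voom on recovered reads also called 0 higher. Over all genes voom called 1092 and 430, of which 37.5% and 42.6% were higher. The median log2 changes were -1.14 and -1.36, against -0.028 and -0.0097 over all 12028 genes. With OMV-SIRP the fall took in 9 of 10 RNA effectors, 4 of 4 sensors, 5 of 7 ubiquitin-like and ADP-ribosylation genes, 4 of 7 GTPases, membrane and nucleotide effectors, 5 of 5 DNA-binding and nuclear body genes and 3 of 6 others. With OMV-SIRP-G it took in 9, 3, 4, 4, 4 and 4 of them. Phf11d, counted among the DNA-binding and nuclear body genes that fell, passed the filter only through its PBS libraries. Genes without a call ranged from -1.48 (Ifi27l2a) to -0.10 (Ifitm1) after OMV-SIRP and from -1.43 (Bst2) to 0.06 (Samd9l) after OMV-SIRP-G.

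The PBS library 2 of the monocytes stood apart from the other PBS libraries, and the pattern followed gene length. Of the 39 genes, the 9 shorter than 2000 bases were at 1.23 to 3.11 times the mean of PBS 1 and PBS 3 in that library, and the 11 of at least 5000 bases at 0.4 to 1.04 times. The Spearman correlation of this ratio with exonic length was -0.84 across the 39 genes and -0.50 across all 12028 genes, as a description of 1 library. The sum of 7 erythroid markers was 426 FPKM in that library, at least 138 in the other PBS libraries, 8.51 to 9.61 after OMV-SIRP and 17.1 to 21.3 after OMV-SIRP-G, and that of 8 GMP markers 877 to 1908 after PBS, 533 to 599 after OMV-SIRP and 316 to 361 after OMV-SIRP-G. Their part in the result was not tested. The 8 monocyte markers summed to 2482 to 2807 after PBS, 2327 to 2517 after OMV-SIRP and 2682 to 2749 after OMV-SIRP-G. Without PBS 2, at the same threshold, 37 of 38 tested genes were lower in both comparisons with PBS, and the medians were -1.08 and -1.27. The remaining gene was Ifitm1 in both. Calls over all genes also increased without PBS 2. They went from 1026 to 3563 after OMV-SIRP, 42.1% of the 3563 being higher. After OMV-SIRP-G they went from 442 to 1479, 45.4% of the 1479 being higher. Samd9l, at 0.06 with all libraries, then changed by -0.30 after OMV-SIRP-G (adjusted p = 0.0379).

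**Figure D3:**
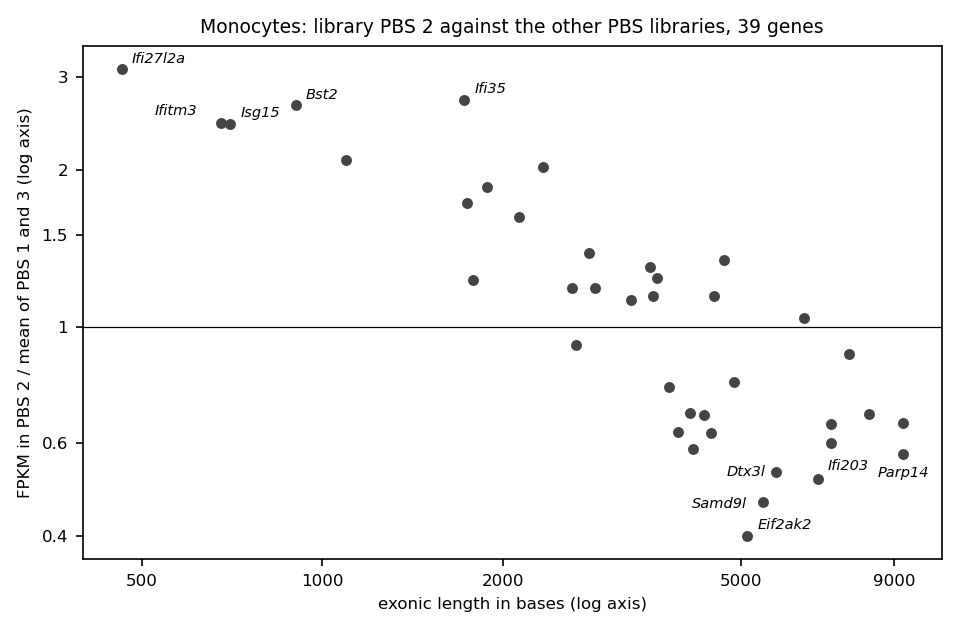
Monocytes: FPKM in the library PBS 2 divided by the mean of PBS 1 and PBS 3 (vertical log axis) against exonic length in bases (horizontal log axis) for the 39 tested genes, 1 point each. The 9 genes under 2000 bases lie at 1.23 or above and the 11 genes of at least 5000 bases at 1.04 or below.

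Isg15 was at 51.7, 129 and 53.7 FPKM after PBS, 11.8, 13.3 and 15.3 after OMV-SIRP (-2.32 ± 0.33, adjusted p = 0.0055) and 21.2, 14.7 and 20.2 after OMV-SIRP-G (-1.89 ± 0.33, adjusted p = 0.0184). Usp18 was at 16.1, 21.2 and 14.5 FPKM after PBS, 3.58, 3.804 and 3.99 after OMV-SIRP (-1.91 ± 0.14) and 2.93, 3.59 and 2.998 after OMV-SIRP-G (-2.12 ± 0.14). For both genes the PBS values were above all treated ones, PBS 2 being the highest. Their changes were the lowest of the set, Isg15 after OMV-SIRP and Usp18 after OMV-SIRP-G, but not without PBS 2, where Isg15 (-1.899) came after Rsad2 (-2.31), and Usp18 (-1.97) after Oas2 (-2.12). Usp18 also lost that place to Ifi27l2a or Rtp4 without either OMV-SIRP-G 1, OMV-SIRP-G 3, PBS 1 or PBS 3. Herc6, the ligase that attaches Isg15 in mice, was at 3.29, 2.15 and 3.27 FPKM after PBS, 1.63, 1.57 and 1.31 after OMV-SIRP (-0.63 ± 0.14) and 1.26, 1.18 and 1.099 after OMV-SIRP-G (-0.83 ± 0.14). Parp9 was at 18.4, 14.3 and 17.9 FPKM after PBS, 11.7, 12.8 and 11.1 after OMV-SIRP and 12.2, 11.9 and 13.6 after OMV-SIRP-G, a fall after OMV-SIRP (-0.47 ± 0.12, adjusted p = 0.0495) and no call after OMV-SIRP-G (-0.39 ± 0.12, adjusted p = 0.147).

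Rsad2 and Mx1 fell after both treatments in monocytes. Rsad2 was at 8.91, 6.26 and 9.51 FPKM after PBS, 1.05, 1.02 and 1.09 after OMV-SIRP (-2.15 ± 0.14) and 2.46, 2.37 and 2.06 after OMV-SIRP-G (-1.47 ± 0.14). The direct difference between the treatments in Rsad2 was 0.68 ± 0.14 with an adjusted p of 0.0525. Mx1 was at 17.7, 13.7 and 17.9 FPKM after PBS, 6.56, 6.48 and 6.27 after OMV-SIRP (-1.22 ± 0.13) and 3.08, 4.01 and 3.64 after OMV-SIRP-G (-1.92 ± 0.13), with no overlap among the 3 groups. The short genes Bst2 and Ifitm3 were lower in all treated libraries but gave no call, PBS 2 being far above the other PBS libraries. Bst2 was at 121, 307 and 110.0 FPKM after PBS, 67.7, 75.998 and 85.2 after OMV-SIRP (-1.07 ± 0.36, adjusted p = 0.118) and 65.7, 46.99 and 66.1 after OMV-SIRP-G (-1.43 ± 0.36, adjusted p = 0.0824). Ifitm3 was at 1266, 3071 and 1237 FPKM after PBS, 860.0, 1029.8 and 946 after OMV-SIRP and 879.5, 794 and 933 after OMV-SIRP-G (-0.84 ± 0.33 and -0.96 ± 0.33).

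Of the RNA effectors in monocytes, Ifit3 was at 4.84, 8.87 and 5.42 FPKM after PBS, 1.41, 0.837 and 1.15 after OMV-SIRP (-1.76 ± 0.21) and 1.07, 1.44 and 1.02 after OMV-SIRP-G (-1.73 ± 0.21). Both treated groups of monocytes lay below PBS, whereas in GMP the OMV-SIRP-G group lay above it. Oas2 was at 21.9, 13.6 and 21.4 FPKM after PBS, 7.43, 7.17 and 5.58 after OMV-SIRP (-1.35 ± 0.19) and 4.16, 4.802 and 3.76 after OMV-SIRP-G (-1.904 ± 0.19). The other called effectors changed by -1.14 (Oas1a) to -1.87 (Ifit1) after OMV-SIRP and by -1.41 (Oasl1) to -1.85 (Oasl2) after OMV-SIRP-G. Eif2ak2, the RNA-activated kinase that halts translation, was the 1 tested effector without a call (-0.66 ± 0.30 and -0.59 ± 0.30), and its PBS 2 value of 8.03 FPKM lay among the treated libraries.

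All 4 sensors fell in monocytes after OMV-SIRP, and 3 after OMV-SIRP-G. Zbp1 was at 22.7, 29.8 and 23.2 FPKM after PBS, 10.02, 10.9 and 10.7 after OMV-SIRP (-1.18 ± 0.12) and 11.9, 10.7 and 10.9 after OMV-SIRP-G (-1.101 ± 0.12). Ddx58, the RNA helicase known as RIG-I, was at 10.4, 7.37 and 12.1 FPKM after PBS, 4.69, 4.63 and 4.85 after OMV-SIRP and 4.86, 5.23 and 4.43 after OMV-SIRP-G (-0.91 ± 0.16 and -0.89 ± 0.16). Dhx58 was at 32.7, 34.8 and 29.1 FPKM after PBS, 14.3, 16.01 and 14.8 after OMV-SIRP and 15.5, 16.9 and 15.4 after OMV-SIRP-G (-1.05 ± 0.10 and -0.97 ± 0.10). In these 3 genes no treated library reached the lowest PBS library. Ifih1, another RNA helicase sensor, was at 10.8, 7.65 and 11.6 FPKM after PBS, 5.88, 5.66 and 5.44 after OMV-SIRP and 6.1999, 6.39 and 6.42 after OMV-SIRP-G, a fall after OMV-SIRP (-0.71 ± 0.14) that missed the threshold after OMV-SIRP-G (-0.57 ± 0.14, adjusted p = 0.0747).

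Among the DNA-binding and remaining genes of monocytes, Rtp4 was at 14.2, 23.1 and 14.3 FPKM after PBS, 3.34, 3.66 and 3.62 after OMV-SIRP (-1.97 ± 0.18) and 3.83, 3.03 and 3.28 after OMV-SIRP-G (-2.02 ± 0.18). Ifi27l2a was at 269.7, 798 and 243 FPKM after PBS, 115, 149 and 137 after OMV-SIRP (-1.48 ± 0.42, adjusted p = 0.0696) and 95.6, 71.8 and 114 after OMV-SIRP-G (-2.01 ± 0.42, adjusted p = 0.0391). Its PBS 2 value was 3.11 times the mean of the other PBS libraries, the highest such ratio of the set. Sp100 was at 40.4, 36.02 and 40.6 FPKM after PBS, 22.9, 22.5 and 23.01 after OMV-SIRP (-0.75 ± 0.09) and 19.7, 19.9 and 18.9 after OMV-SIRP-G (-0.96 ± 0.09). Lgals3bp, a secreted glycoprotein that binds galectins, was at 57.4, 67.2 and 55.97 FPKM after PBS, 40.9, 42.9 and 48.5 after OMV-SIRP (-0.44 ± 0.11) and 26.4, 23.4 and 25.1 after OMV-SIRP-G (-1.23 ± 0.11), with no overlap among the 3 groups. The DNA-binding genes Ifi204 and Ifi211 changed by -1.58 and -1.76 after OMV-SIRP and by -1.36 and -1.35 after OMV-SIRP-G.

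Between the treatments, monocytes differed in 2 of the 39 genes, Lgals3bp (-0.79 ± 0.11, adjusted p = 0.0119) and Mx1 (-0.71 ± 0.13, adjusted p = 0.0281), both lower after OMV-SIRP-G, where 0.848% of all genes were lower and 1.59% higher. The limma test called 0 of the 39 higher, against 3 without adjustment and 1 by voom, and the median was -0.12 against 0.014 over all genes. Voom called 326 of all genes, 63.2% of them higher. Fitted on the 2 compared groups alone, 3 of 38 members were higher and 10 lower, with 2118 genes called in place of 293. Both calls were lost on leaving out any 1 of the 6 libraries compared (adjusted p up to 0.141). Of the falls from PBS, 10 after OMV-SIRP (Lgals3bp, Parp9, Ifi203, Herc6, Trim30a, Cmpk2, Ddx58, Ifih1, Oas1a and Oas1g) and 5 after OMV-SIRP-G (Ifi27l2a, Ddx58, Herc6, Isg15 and Oas1g) were lost when 1 library besides PBS 2 was left out (adjusted p as high as 0.188). Without 1 library, 20 to 37 genes were lower after OMV-SIRP and 23 to 37 after OMV-SIRP-G, the highest counts being those without PBS 2. Over all genes, in either direction, 366 to 3563 and 202 to 1479 were then called, again most without PBS 2.

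GMP and monocytes share no library, so their calls can be set side by side. After OMV-SIRP, 24 genes fell in both, which is 82.8% of the 29 lower in GMP and 80% of the 30 lower in monocytes. After OMV-SIRP-G, 18 fell in both, 72% of 25 and 64.3% of 28. After OMV-SIRP 29 of 37 tested genes were lower in GMP and 30 of 39 in monocytes, and after OMV-SIRP-G 25 and 28. Many shared falls follow from those counts alone. Whether the overlap exceeded them was not tested, and it was not counted over all genes. Whether the size of the fall differed between the populations was not tested.

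**Figure D4:**
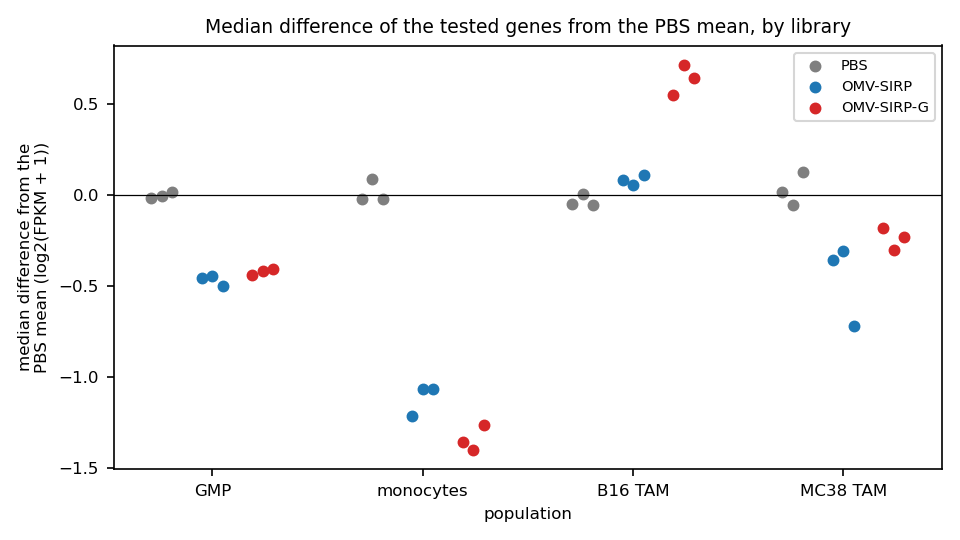
Median over the tested genes of the set of the difference from the PBS mean on log2(FPKM + 1), 1 point per library (vertical axis), by population (horizontal axis) and treatment. The OMV-SIRP-G libraries lie at -1.40 to -1.26 in monocytes, -0.44 to -0.40 in GMP, -0.30 to -0.18 in MC38 TAM and 0.55 to 0.72 in B16 TAM.

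In B16 TAM the genes that moved after OMV-SIRP-G rose, and OMV-SIRP gave a single call. All 41 genes passed the filter there, Ifi44 only through its OMV-SIRP-G libraries. Ifi44 counts among the 41 and gave no call, and its tests are not independent of the filter. OMV-SIRP-G raised 22 and lowered 0, where 7.83% of all tested genes rose and 7.28% fell, and the median log2 change was 0.63 against -0.030 over all 12542 genes. Without adjustment limma gave 28 higher and 0 lower, and voom 26 and 0. Over all genes voom called 2176, 53.0% of them higher. The rise took in 7 of 11 RNA effectors, 2 of 4 sensors, 3 of 7 ubiquitin-like and ADP-ribosylation genes, 4 of 7 GTPases, membrane and nucleotide effectors, 3 of 5 DNA-binding and nuclear body genes, and 3 of 7 others. The 19 genes without a call ranged from -0.11 (Ifit3b) to 1.09 (Ifit1). After OMV-SIRP 1 gene rose and 0 fell, where 0.885% of all genes rose and 0.566% fell, with a median of 0.068 against -0.0066. Without adjustment limma gave 6 higher and 3 lower, and voom called 1 and 0. Over all genes voom called 192, 53.1% of them higher.

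The largest rises after OMV-SIRP-G in B16 TAM were in DNA-binding and ADP-ribosylation genes. Ifi204 was at 7.84, 12.01 and 12.1 FPKM after PBS, 5.86, 8.81 and 9.39 after OMV-SIRP and 30.1, 39.3 and 27.4 after OMV-SIRP-G (1.52 ± 0.22, adjusted p = 0.00133). Ifi211 was at 14.5, 11.8 and 11.4 FPKM after PBS, 16.2, 13.9 and 19.9 after OMV-SIRP and 27.8, 26.3 and 33.7 after OMV-SIRP-G (1.16 ± 0.17). Parp14, an ADP-ribosyltransferase, was at 2.46, 3.46 and 4.96 FPKM after PBS, 6.09, 4.39 and 4.22 after OMV-SIRP and 10.7, 10.6 and 10.1 after OMV-SIRP-G (1.34 ± 0.22). In all 3 genes the OMV-SIRP-G libraries lay above the rest, while OMV-SIRP overlapped PBS.

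Of the RNA effectors in B16 TAM, Oas1g was at 8.14, 9.72 and 9.47 FPKM after PBS, 10.2, 12.8 and 14.6 after OMV-SIRP (0.41 ± 0.17, adjusted p = 0.48) and 16.6, 22.6 and 21.7 after OMV-SIRP-G (1.07 ± 0.17). Its near copy Oas1a was at 49.1, 44.5 and 42.7 FPKM after PBS, 43.6, 45.6 and 54.1 after OMV-SIRP and 78.3, 67.9 and 67.1 after OMV-SIRP-G (0.63 ± 0.12). Oas2 was at 5.81, 4.66 and 4.43 FPKM after PBS, 6.06, 7.45 and 7.73 after OMV-SIRP and 9.51, 12.7 and 11.6 after OMV-SIRP-G (1.04 ± 0.17), the 3 groups not overlapping. Oasl1 was at 17.8, 17.2 and 16.5 FPKM after PBS, 9.98, 12.4 and 19.6 after OMV-SIRP and 34.7, 33.6 and 33.7 after OMV-SIRP-G (0.94 ± 0.20), and Oasl2 rose by 1.02 ± 0.15. Ifit3 was at 16.4, 18.3 and 14.1 FPKM after PBS, 16.5, 15.001 and 14.9 after OMV-SIRP and 22.02, 35.7 and 22.4 after OMV-SIRP-G (0.65 ± 0.19, adjusted p = 0.0407), OMV-SIRP-G 2 being the highest by a wide margin. Oas3, in the same cluster of synthetase genes on chromosome 5, gave 0.03 ± 0.18 with no call.

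Zbp1 in B16 TAM was at 14.4, 14.7 and 16.4 FPKM after PBS, 15.9, 12.6 and 16.4 after OMV-SIRP and 24.9, 31.1 and 24.2 after OMV-SIRP-G (0.77 ± 0.15). Isg15 was at 76.4, 72.05 and 68.5 FPKM after PBS, 77.8, 75.5 and 87.9 after OMV-SIRP and 107, 117 and 95.4 after OMV-SIRP-G (0.54 ± 0.11), one of the smaller called rises. Usp18, which fell in both bone marrow populations, gave no call here, at 10.1, 10.1 and 11.2 FPKM after PBS, 9.46, 8.87 and 12.5 after OMV-SIRP and 11.1, 10.3 and 9.99 after OMV-SIRP-G. Its log2 changes were -0.04 and -0.00066, each with an SE of 0.15. Mx1 was at 5.72, 6.24 and 5.11 FPKM after PBS, 6.29, 9.43 and 5.21 after OMV-SIRP and 12.98, 12.6 and 9.9998 after OMV-SIRP-G (0.94 ± 0.21). In Zbp1, Isg15 and Mx1 every OMV-SIRP-G library exceeded every PBS library.

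The membrane genes of B16 TAM included the only call after OMV-SIRP. Ifitm1, a relative of Ifitm3, was at 24.98, 34.2 and 27.3 FPKM after PBS, 79.4, 74.3 and 109 after OMV-SIRP (1.56 ± 0.17, adjusted p = 0.00136) and 34.6, 43.4 and 43.5 after OMV-SIRP-G (0.48 ± 0.17, adjusted p = 0.0944). Ifitm3 was at 444, 424 and 409.5 FPKM after PBS, 573, 479.7 and 757 after OMV-SIRP and 735, 873 and 812 after OMV-SIRP-G, a rise after OMV-SIRP-G (0.92 ± 0.15) and none called after OMV-SIRP (0.48 ± 0.15). Bst2 was at 319, 251 and 258 FPKM after PBS, 272, 237 and 413 after OMV-SIRP and 448, 421 and 421 after OMV-SIRP-G (0.65 ± 0.18), the third OMV-SIRP library lying near the OMV-SIRP-G group. Rsad2 was at 8.09, 7.62 and 7.14 FPKM after PBS, 5.38, 4.98 and 4.68 after OMV-SIRP (-0.52 ± 0.15, adjusted p = 0.182) and 11.8, 10.002 and 12.3 after OMV-SIRP-G (0.52 ± 0.15, adjusted p = 0.0391), so that PBS again lay between the treatments, as it had in GMP. Lgals3bp was at 173, 189 and 174 FPKM after PBS, 152, 164 and 142 after OMV-SIRP and 268, 273 and 279 after OMV-SIRP-G (0.61 ± 0.09), its OMV-SIRP group lying below PBS and its OMV-SIRP-G group above.

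Directly between the treatments in B16 TAM, 17 genes were higher and 1 lower after OMV-SIRP-G, where 6.35% and 5.62% of all genes were, with a median of 0.52 against -0.025 over all genes. The largest differences were in Ifi204 (1.89 ± 0.22) and Oasl1 (1.27 ± 0.20), the smallest called rise was in Isg15 (0.40 ± 0.11), and the fall was in Ifitm1 (-1.08 ± 0.17). Leaving out 1 library kept 14 to 20 genes higher than PBS and 9 to 13 higher than OMV-SIRP. Lost in this way over OMV-SIRP were the rises of Mx1, Oas2, Isg15, Ifit3 and Oas1g (limma adjusted p up to 0.155). Those of Ifit2, Phf11d, Ifi27l2a, Parp14 and Oas1a were lost too (up to 0.140). The rises over PBS lost in this way were those of Ifi27l2a, Bst2, Rtp4, Ifit3, Rsad2, Eif2ak2, Mx1 and Ifih1 (adjusted p up to 0.140), the last 2 without PBS 3 alone. No rise over PBS of the 8 largest, Ifi204, Parp14, Ifi211, Oas1g, Oas2, Oasl2, Oasl1 and Mx1, was lost in this way except that of Mx1.

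The makeup of the B16 TAM libraries moved with the treatment as well. The summed FPKM of 8 macrophage markers was 1852 to 1928 after PBS, 2663 to 3426 after OMV-SIRP and 6102 to 6396 after OMV-SIRP-G. All 8 macrophage markers rose after OMV-SIRP-G, by a median log2 change of 1.39, against 0.63 for the 41 genes. The sum of 6 melanoma markers was 2879 to 3149, 2367 to 2612 and 800.3 to 899 in the same order, that of 7 erythroid markers 16535 to 17906, 2220.1 to 3101 and 3233 to 3267, and that of 8 T cell markers 246 to 321, 91.8 to 133 and 89.1 to 104. In B16 TAM none of the 8 macrophage, 6 melanoma or 8 T cell markers was at 0 in all 3 libraries of a group, and 1 erythroid marker was after OMV-SIRP-G. The part of these markers in the result was not tested.

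**Figure D5:**
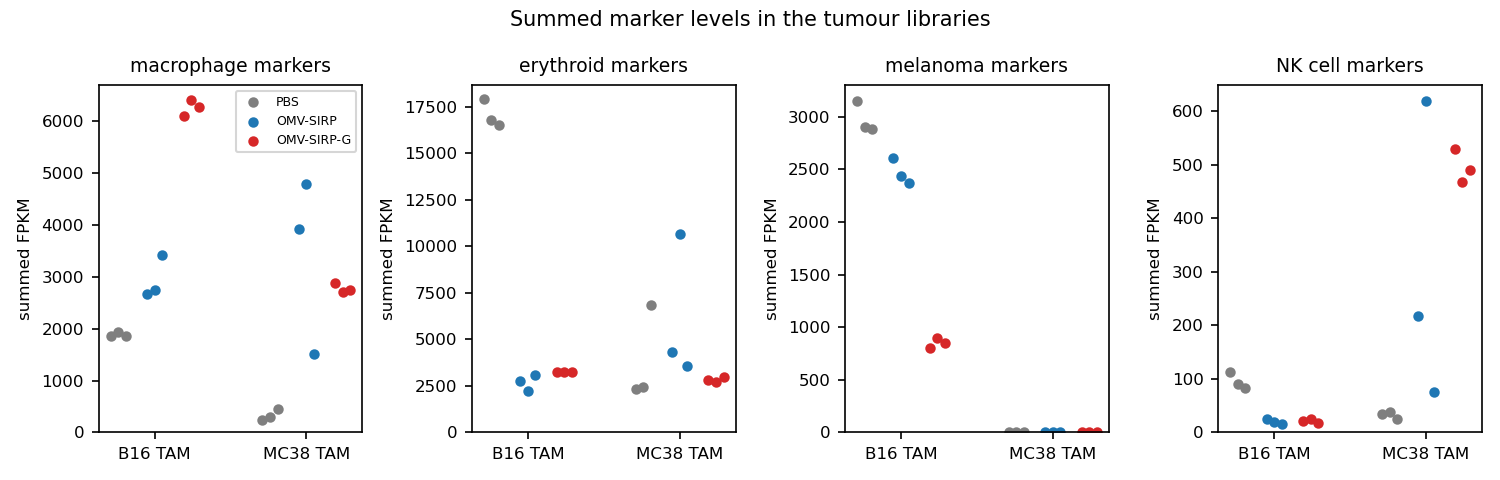
Summed FPKM of markers of macrophages, erythroid cells, melanoma and NK cells (vertical axes, each from 0) in the 18 tumour libraries, by tumour model (horizontal axis) and treatment, 1 point per library. In B16 TAM the macrophage sum is 6102 to 6396 after OMV-SIRP-G and at most 1928 after PBS, and in MC38 TAM it is 238 to 460 after PBS.

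The MC38 TAM libraries after PBS held little macrophage RNA, against their label. The sum of 8 macrophage markers was 238 to 460 FPKM after PBS, 1505 to 4791 after OMV-SIRP and 2706 to 2875 after OMV-SIRP-G, and Mertk, a receptor of mature macrophages, was at 0 in all 3 PBS libraries. After OMV-SIRP 7 of the 8 macrophage markers rose and after OMV-SIRP-G all 8. Neutrophil markers summed to 255 to 566 after PBS and at most 164 after either treatment. NK cell markers summed to 25.7 to 38.3 after PBS, 75.2 to 619 after OMV-SIRP and 468 to 530.0 after OMV-SIRP-G. Erythroid markers summed to 2320.1 to 6836 after PBS, 3586 to 10678 after OMV-SIRP and 2712 to 2964 after OMV-SIRP-G. Mitochondrial genes took 2.98% to 5.07% of reads after PBS, 15.2% to 21.5% after OMV-SIRP and 6.06% to 6.46% after OMV-SIRP-G. Whether these differences contribute to the values below was not tested.

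In MC38 TAM few of the 41 genes passed the test, and they moved in both directions. OMV-SIRP lowered 4 (Ifi44, Xaf1, Oas3 and Ifitm3) and raised 0, where 3.49% of all tested genes fell and 7.4% rose. Without adjustment limma gave 15 lower and 2 higher, and voom called 5 and 2, and with libraries scaled to total reads 17 members were lower. Over all genes voom called 1673 after OMV-SIRP, 64.8% of them higher. Scaling to total reads gave 2332 calls over all genes, 29.9% of them higher. OMV-SIRP-G lowered 8 and raised 3 (Ifitm1, Mx1 and Rsad2), where 6.86% and 13.1% of all genes did. The medians were -0.51 and -0.23, against 0.028 and 0.069 over all 14089 genes. Genes without a call ranged from -1.74 (Isg15) to 1.31 (Ifit2) after OMV-SIRP and from -0.91 (Eif2ak2) to 1.29 (Ifit2) after OMV-SIRP-G.

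Ifi44, a cytoplasmic protein of uncertain role, fell most in MC38 TAM after both treatments. It was at 9.01, 8.53 and 9.12 FPKM after PBS, 1.49, 1.098 and 0.624 after OMV-SIRP (-2.28 ± 0.31, adjusted p = 0.00317) and 0.352, 0.581 and 1.03 after OMV-SIRP-G (-2.6 ± 0.31, adjusted p = 0.00105). Xaf1, an antagonist of a cell death inhibitor, was at 22.4, 21.4 and 13.1 FPKM after PBS, 7.12, 2.32 and 4.62 after OMV-SIRP (-1.87 ± 0.36) and 4.05, 3.36 and 5.96 after OMV-SIRP-G (-1.86 ± 0.36). Both genes had PBS libraries far above all treated libraries. Oas3 was at 12.5, 9.805 and 8.04 FPKM after PBS, 4.31, 4.27 and 2.54 after OMV-SIRP (-1.25 ± 0.31) and 2.36, 4.46 and 5.17 after OMV-SIRP-G (-1.18 ± 0.31). Ifitm3 was at 458, 424 and 461 FPKM after PBS, 267, 346 and 255 after OMV-SIRP and 238, 199.6 and 230.5 after OMV-SIRP-G (-0.64 ± 0.14 and -1.01 ± 0.14), with no overlap among the 3 groups.

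Ifit1, an RNA-binding protein that blocks translation of foreign messages, was at 19.1, 14.97 and 33.2 FPKM after PBS, 6.33, 15.4 and 6.02 after OMV-SIRP (-1.23 ± 0.38, adjusted p = 0.0684) and 6.83, 6.93 and 9.33 after OMV-SIRP-G (-1.36 ± 0.38, adjusted p = 0.0342). Rtp4 was at 27.4, 18.4 and 11.2 FPKM after PBS, 8.79, 12.7 and 7.297 after OMV-SIRP and 7.18, 9.295 and 5.102 after OMV-SIRP-G, with a call after OMV-SIRP-G alone (-1.24 ± 0.34). Bst2 was at 191, 187 and 116 FPKM after PBS, 128, 80.6 and 111 after OMV-SIRP and 95.7, 97.98 and 89.5 after OMV-SIRP-G (-0.61 ± 0.23, adjusted p = 0.119, and -0.76 ± 0.23, adjusted p = 0.0462). In these 3 genes every OMV-SIRP-G library lay below every PBS library, and at least 1 OMV-SIRP library lay above the lowest PBS library. Ddx58 also fell after OMV-SIRP-G (-1.2 ± 0.26).

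The genes that rose in MC38 TAM after OMV-SIRP-G were of the membrane and GTPase group. Ifitm1 was at 29.2, 13.1 and 44.9 FPKM after PBS, 58.3, 70.7 and 51.96 after OMV-SIRP (1.18 ± 0.36, adjusted p = 0.0679) and 83.9, 80.5 and 88.7 after OMV-SIRP-G (1.66 ± 0.36). Mx1 was at 2.44, 2.01 and 3.44 FPKM after PBS, 6.12, 3.15 and 2.46 after OMV-SIRP and 9.25, 7.08 and 6.36 after OMV-SIRP-G (1.24 ± 0.32). Rsad2 was at 4.44, 4.78 and 6.8996 FPKM after PBS, 7.91, 7.76 and 5.69 after OMV-SIRP and 10.5, 9.56 and 11.1 after OMV-SIRP-G (0.86 ± 0.22). In all 3 the OMV-SIRP-G libraries lay above PBS.

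The other genes followed in every library gave no call in MC38 TAM. Isg15 was at 57.8, 89.8 and 57.98 FPKM after PBS, 30.2, 3.998 and 52.9 after OMV-SIRP (-1.74 ± 0.72, adjusted p = 0.152) and 70.2, 59.9 and 98.5 after OMV-SIRP-G (0.15 ± 0.72), the library OMV-SIRP 2 being the lowest of all. Usp18 was at 9.42, 8.38 and 6.49 FPKM after PBS, 6.08, 2.09 and 4.59 after OMV-SIRP and 8.57, 8.85 and 5.54 after OMV-SIRP-G (-0.86 ± 0.33 and -0.08 ± 0.33). Ifit3 was at 13.3, 9.503 and 21.2 FPKM after PBS, 10.7, 0.975 and 8.84 after OMV-SIRP and 8.84, 7.99 and 5.75 after OMV-SIRP-G (-1.29 ± 0.61 and -0.83 ± 0.61). The same OMV-SIRP library was the lowest for these genes too. Oas2 was at 1.46, 2.49 and 9.604 FPKM after PBS, 4.04, 3.66 and 1.603 after OMV-SIRP and 3.41, 3.501 and 5.34 after OMV-SIRP-G (-0.19 ± 0.52 and 0.15 ± 0.52), PBS 3 being far above the other PBS libraries. Zbp1 was at 19.7, 16.7 and 20.1 FPKM after PBS, 17.8, 13.2 and 6.09 after OMV-SIRP and 18.5, 14.2 and 15.1 after OMV-SIRP-G (-0.68 ± 0.32 and -0.23 ± 0.32).

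Between the treatments limma called 0 of the 41 genes in MC38 TAM, where 0.149% of all genes were higher and 0.234% lower after OMV-SIRP-G. Without adjustment 6 were higher and 1 lower, voom called 0, the lowest adjusted p was 0.143 in Dtx3l (1.11 ± 0.26), and the median was 0.16 against 0.054. Voom called 118 of all genes, 58.5% of them higher. The calls against PBS leaned on single libraries. After OMV-SIRP, the falls of Oas3, Ifitm3 and Xaf1 lost their call without 1 library, PBS 1 in each case and others for the first pair (adjusted p up to 0.0986), and that of Ifi44 did not. After OMV-SIRP-G the calls of Bst2, Ifit1, Rtp4, Rsad2, Oas3 and Mx1 were lost without any of 4 or 5 of the 6 libraries compared, PBS 1 included, that of Ddx58 without OMV-SIRP-G 2 or OMV-SIRP-G 3 and that of Ifitm1 without OMV-SIRP-G 3 (adjusted p up to 0.135). The counts without 1 library were 1 to 8 lower and 0 to 2 higher after OMV-SIRP, and 3 to 8 lower and 0 to 4 higher after OMV-SIRP-G. PBS 3 and OMV-SIRP 2 were the libraries with the fewest genes read in their groups, 13470 and 12818. With both left out, a choice made after seeing the data, 13 genes were lower and 3 higher after OMV-SIRP, 10 lower and 5 higher after OMV-SIRP-G, and 2 higher in OMV-SIRP-G than in OMV-SIRP. Calls over all genes increased too, from 1534 to 2042, from 2809 to 4701 and from 54 to 644 in the same order. In this setting 67.6%, 58.3% and 49.5% of all calls were higher.

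After OMV-SIRP-G, 17 genes rose in B16 TAM and fell in monocytes, 77.3% of the 22 and 60.7% of the 28, and 15 rose in B16 TAM and fell in GMP, 68.2% of the 22 and 60% of the 25. Between the tumour models, Bst2, Ifitm3 and Rtp4 rose in B16 TAM and fell in MC38 TAM, and Mx1 and Rsad2 rose in both. In each model the calls of Bst2, Rtp4 and Rsad2 were lost without any 1 of 5 libraries (limma adjusted p up to 0.138). That of Mx1 was lost without any 1 of 5 in MC38 TAM (up to 0.111) and without PBS 3 in B16 TAM (0.0522). Those of Ifitm3 were not lost in this way. The populations set side by side here share no libraries, and a difference between their responses was not tested. As 22 of 41 genes rose in B16 TAM, and 28 of 39 fell in monocytes and 25 of 37 in GMP, many such pairs follow from those counts alone. Whether there were more was not tested, and they were not counted over all genes.

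The pathway above the set was followed in the same libraries, beginning with the ligands. The tables hold 21 interferon genes, and in GMP and monocytes none of them reached 1 FPKM in any library, with 14 and 17 of the 21 at 0 throughout. In B16 TAM, Ifnb1 was at 2.17, 1.78 and 0.771 FPKM after PBS and between 0 and 2.33 after the treatments, without a call. Ifng, the type II interferon made by T and NK cells, was at 6.90, 5.57 and 5.26 FPKM after PBS, 2.66, 2.85 and 2.34 after OMV-SIRP and 2.08, 0.499 and 2.44 after OMV-SIRP-G (-1.45 ± 0.30, adjusted p = 0.0084). In MC38 TAM, Ifng was at 17.1, 8.13 and 9.37 FPKM after PBS, 11.7, 16.9 and 6.99 after OMV-SIRP and 37.2, 22.3 and 17.2 after OMV-SIRP-G (1.08 ± 0.39, no call). Ifnb1, Ifna13 and Ifnab each passed 1 FPKM in 1 MC38 TAM library, at 1.27 in OMV-SIRP 3, 1.77 in OMV-SIRP-G 2 and 7.04 in PBS 3.

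Counts of pathway genes against PBS, here and below, stand beside these shares of all tested genes. In GMP 10.6% rose and 7.52% fell after OMV-SIRP, and 6.76% and 5.22% after OMV-SIRP-G. In monocytes it was 3.07% and 5.46%, then 1.53% and 2.14%. In B16 TAM it was 0.885% and 0.566%, then 7.83% and 7.28%. In MC38 TAM it was 7.4% and 3.49%, then 13.1% and 6.86%. The receptors and their kinases, 9 genes, gave few calls in bone marrow. In GMP, Ifnlr1, the receptor of type III interferons, rose after both treatments (0.89 ± 0.08 and 0.65 ± 0.08, from 4.25 ± 0.291 to 8.74 ± 0.606 and 7.26 ± 0.678 FPKM, SD, n = 3), Ifngr1 fell after OMV-SIRP (-0.28 ± 0.05) and Ifngr2 rose after OMV-SIRP-G (0.22 ± 0.06). The 8 tested in monocytes gave no limma call, with log2 changes of 0.01 to 0.28 after OMV-SIRP and -0.14 to 0.33 after OMV-SIRP-G. In B16 TAM, 3 of 8 rose after OMV-SIRP-G, among them Ifnar2 (0.94 ± 0.13) and Ifnar1 (0.77 ± 0.14), the 2 chains of the type I receptor. In MC38 TAM, 2 of 8 rose after OMV-SIRP and 4 after OMV-SIRP-G, with Il10rb (1.698 ± 0.30 and 2.05 ± 0.30) and Tyk2 (0.76 ± 0.20 and 1.67 ± 0.20) the largest in both.

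Of the 10 STAT and IRF transcription factors followed, 4 fell in monocytes after OMV-SIRP and 3 after OMV-SIRP-G. Irf7, which drives interferon genes and is itself interferon-induced, went from 46.04 ± 15.5 FPKM after PBS to 11.1 ± 0.271 after OMV-SIRP (-1.91 ± 0.19) and 15.1 ± 0.436 after OMV-SIRP-G (-1.502 ± 0.19). Stat2 changed by -1.04 ± 0.17 after OMV-SIRP and by -1.14 ± 0.17 after OMV-SIRP-G. In GMP, 4 fell and 1 rose after OMV-SIRP, with Irf7 (-0.71 ± 0.07) and Irf9 (-0.41 ± 0.07) lowest and Irf1 (0.35 ± 0.05) highest. After OMV-SIRP-G, 3 fell and 2 rose in GMP, with Irf9 (-0.59 ± 0.07) and Stat2 (-0.32 ± 0.08) lowest and Irf8 (0.32 ± 0.05) and Irf1 (0.19 ± 0.05) highest. In B16 TAM 1 rose after OMV-SIRP (Irf9, 0.70 ± 0.14), and 5 rose and 1 fell after OMV-SIRP-G, where Stat2 changed by 0.93 ± 0.16, Irf2 by 0.82 ± 0.20 and Stat3 by -0.52 ± 0.15. In MC38 TAM 2 rose after OMV-SIRP and 5 after OMV-SIRP-G, led by Irf5 (2.14 ± 0.25 and 2.76 ± 0.25) and Irf8 (1.52 ± 0.31 and 2.49 ± 0.31), both of which macrophages and dendritic cells express.

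Feedback inhibitors, 6 genes, were called in few comparisons with PBS. Socs3, which blocks receptor kinases, rose after OMV-SIRP-G in monocytes (0.87 ± 0.10, from 85.1 ± 2.29 to 156 ± 4.25 FPKM), in B16 TAM (0.92 ± 0.15) and in MC38 TAM (1.54 ± 0.39). Ptpn6, a phosphatase of blood cells, rose in B16 TAM after OMV-SIRP-G (0.85 ± 0.09) and in MC38 TAM after both treatments (2.505 ± 0.55 and 2.68 ± 0.55). Of the sensors and adaptors upstream of interferon, 4 of 11 tested fell in GMP after OMV-SIRP and 2 after OMV-SIRP-G, among them Tlr4, the receptor of bacterial lipopolysaccharide (-0.36 ± 0.07 and -0.27 ± 0.07). In monocytes 1 of 11 rose after each treatment, the kinase Ikbke (0.60 ± 0.08 and 0.51 ± 0.08). In B16 TAM 5 of 12 rose after OMV-SIRP-G, the largest of them with a mean of at least 5 FPKM being Tlr7, an endosomal RNA sensor (1.33 ± 0.17). In MC38 TAM 1 of 12 rose after OMV-SIRP and 2 after OMV-SIRP-G, Tlr7 in both (1.81 ± 0.46 and 2.13 ± 0.46) and the DNA sensor Tlr9 in the second (1.95 ± 0.55). These counts were near the 7.4% and 13.1% of all tested genes that rose there.

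Genes that also respond to interferon-gamma were counted in the same way. In monocytes 5 of 9 tested fell after each treatment and 1 rose after OMV-SIRP, with the chemokine Cxcl10 at 19.1 ± 5.61 FPKM after PBS, 5.65 ± 0.697 after OMV-SIRP (-1.56 ± 0.19) and 3.82 ± 0.463 after OMV-SIRP-G (-2.02 ± 0.19), and the GTPase Irgm1 next (-0.83 ± 0.09 and -1.09 ± 0.09). In GMP 3 of 8 fell and 1 rose after OMV-SIRP, and 3 fell after OMV-SIRP-G, with Gbp7 at -0.39 ± 0.09 and -0.54 ± 0.09 and Irgm1 at -0.36 ± 0.07 and -0.42 ± 0.07. In B16 TAM 1 of 13 rose after OMV-SIRP-G (Gbp7, 1.04 ± 0.23), where 7.83% of all tested genes did, and 1 rose after OMV-SIRP (Ciita, the activator of MHC class II genes, 1.33 ± 0.21). In MC38 TAM 2 of 14 rose after OMV-SIRP and 5 after OMV-SIRP-G, with Cxcl9 (3.48 ± 0.54 and 2.86 ± 0.54) and Ciita (2.17 ± 0.30 and 2.74 ± 0.30) largest.

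The pathway genes were also compared between the treatments. After OMV-SIRP-G, compared with OMV-SIRP, 6 of the 44 pathway genes tested in GMP were higher and 6 lower, where 6.7% and 8.12% of all genes were. They included Irf7 (0.55 ± 0.07), Tlr7 (0.35 ± 0.07), Irf8 (0.27 ± 0.05) and Ifngr1 (0.24 ± 0.05) among the higher and Gbp2 (-0.41 ± 0.09), Ptpn2 (-0.31 ± 0.07), Ticam1 (-0.30 ± 0.08), Ptpn6 (-0.26 ± 0.05) and Irf1 (-0.17 ± 0.05) among the lower. In monocytes 1 of 44 was higher (Socs3, 0.61 ± 0.10) and 1 lower, where 1.59% and 0.848% of all genes were. In B16 TAM 8 of 51 were higher and 1 lower, where 6.35% and 5.62% of all genes were, with Tlr7 (1.37 ± 0.17), Irf2 (0.83 ± 0.20), Socs3 (0.80 ± 0.15), Irf7 (0.77 ± 0.13), Ifnar2 (0.75 ± 0.13) and Ptpn6 (0.45 ± 0.09) higher and Ciita (-0.88 ± 0.21) lower. In MC38 TAM, where 0.149% of all genes were higher and 0.234% lower, 1 of 51 was higher, Irf1, a transcription factor induced early by interferon (1.49 ± 0.20, from 20.7 ± 5.23 to 58.6 ± 3.26 FPKM).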

How the data were processed

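Poly(A) RNA of 36 mouse libraries, 4 cell populations under 3 treatments with 3 libraries each, was sequenced. The authors deposited FPKM values in 3 tables, bone marrow, B16 and MC38, each scaled separately. Reads were aligned to GRCm38 with HISAT2 2.0.5 and counted with featureCounts 1.5.0-p3, and StringTie was used, per the submitters' processing notes. Whole reads could be recovered from the deposited FPKM for 100% of values (tolerance 0.05 reads), 13036567 to 19822660 reads per library, and the deposited scaling was the median of ratios over each table.

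Within each population, genes with at least 1 FPKM in at least 3 libraries were tested on log2(FPKM + 1) with limma 3.58.1 (R 4.3.3, statmod 1.5.0; trended, robust empirical Bayes) fitted over all 9 libraries. P-values were adjusted by Benjamini-Hochberg over all genes of a comparison at 0.05, and 3 comparisons were made per population. The fit was tested on simulated data. No test was made between populations.

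The 41 genes, their roles, the pathway lists and the marker lists were chosen with earlier results of these data known, and 1 pathway gene is not reported here. Values in every library are given for Isg15, Ifit3, Oas2, Mx1, Usp18, Rsad2, Zbp1, Bst2 and Ifitm3, for the 4 highest and 4 lowest log2 changes among called members in each comparison with PBS, and for the 2 highest and 2 lowest in OMV-SIRP-G against OMV-SIRP; pathway genes are named when called, with a mean of at least 5 FPKM and among the 2 highest or 2 lowest of their list. Alternatives were a pseudocount of 0.1, no filter, a minimum of 5 FPKM, total-read scaling, median of ratios within a population, voom on recovered reads, the 2 compared groups alone, a replicate block and leaving out each library. Python 3.11.15 with pandas 2.3.3, numpy 2.4.6 and matplotlib 3.10.9 was used for summaries and plots.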

Additional observations from a re-analysis of the deposited data

Results flagged for a closer look

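For OMV-SIRP-G against PBS, 22 of the 41 genes were called higher in at least 1 population and lower in at least 1 other, with every library of the group on the side given. In GMP 25 of 37 tested genes were lower, in monocytes 28 of 39, and in B16 TAM 22 of 41 were higher. Some opposite calls follow from those counts alone, and no such count was made over all genes. Lower in both bone marrow populations and higher in B16 TAM were Oas1a (log2 change -0.76 in GMP, -1.59 in monocytes, 0.63 in B16 TAM), Oas2 (-0.78, -1.904, 1.04), Oasl2 (-0.50, -1.85, 1.02), Zbp1 (-0.45, -1.101, 0.77) and Isg15 (-0.57, -1.89, 0.54). The same held for Trim30a (-0.41, -1.11, 0.67), Ifi204 (-0.55, -1.36, 1.52), Ifi211 (-1.09, -1.35, 1.16), Ifi27l2a (-0.97, -2.01, 0.87) and Lgals3bp (-0.50, -1.23, 0.61). Mx1 was also higher in MC38 TAM (-0.45, -1.92, 0.94 and 1.24), and Rtp4 was lower there (-0.34, -2.02, 0.68 and -1.24).

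Lower in GMP and higher in B16 TAM, without a call in monocytes, were Eif2ak2 (-0.62 and 0.80), Ifih1 (-0.46 and 0.92) and Parp14 (-0.74 and 1.34). Lower in monocytes and higher in B16 TAM, without a call in GMP, were Oas1g (-1.56 and 1.07), Oasl1 (-1.41 and 0.94) and Phf11d (-1.02 and 0.92, not tested in GMP). Ifit3 was higher in GMP (0.91) and B16 TAM (0.65) and lower in monocytes (-1.73), and Rsad2 was higher in GMP (0.40), B16 TAM (0.52) and MC38 TAM (0.86) and lower in monocytes (-1.47). Ifit3 in GMP and Phf11d in monocytes passed the filter only through the group in which they were high. Bst2 (0.65 and -0.76) and Ifitm3 (0.92 and -1.01) were higher in B16 TAM and lower in MC38 TAM.

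For OMV-SIRP-G against OMV-SIRP, Mx1 was higher in GMP (0.47) and B16 TAM (0.72) and lower in monocytes (-0.71), and Lgals3bp was higher in B16 TAM (0.84) and lower in monocytes (-0.79). For OMV-SIRP against PBS there were 0 such genes by the limma calls. Some calls given above for OMV-SIRP-G against PBS were lost when 1 library was left out. They were Isg15, Rtp4 and Mx1 in GMP (limma adjusted p up to 0.1035) and Isg15, Ifi27l2a and Oas1g in monocytes (up to 0.163). In B16 TAM they were Ifit3, Rsad2, Eif2ak2, Ifih1, Mx1, Bst2, Rtp4 and Ifi27l2a (up to 0.140), and in MC38 TAM Mx1, Bst2, Rsad2 and Rtp4 (up to 0.135). Of the calls between treatments, those in monocytes were lost without any 1 of the 6 libraries compared (limma adjusted p up to 0.141). That of Mx1 in B16 TAM was lost without any 1 of 5 (up to 0.134). The difference between populations was not tested for any gene given here. The macrophage, melanoma and erythroid marker sums that moved with treatment in the tumour libraries, and the library PBS 2 of the monocytes, bear on the same contrasts, and their part was not tested.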

How the results depend on the processing

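Counts of members called lower in GMP and monocytes, and higher in B16 TAM, against PBS kept their direction under every alternative run, and sizes moved as follows. The 30 falls in monocytes after OMV-SIRP became 22 scaled to total reads, 20 with the 2 compared groups alone and 25 with a replicate block. The 28 after OMV-SIRP-G became 26, 22 and 24 in the same order. The 22 rises in B16 TAM after OMV-SIRP-G became 16 without a filter and 26 by voom. With a pseudocount of 0.1 the median log2 changes of the members were -0.50 and -0.47 in GMP and -1.24 and -1.44 in monocytes (OMV-SIRP and OMV-SIRP-G against PBS) and 0.61 in B16 TAM for OMV-SIRP-G against OMV-SIRP, and 1 member was higher in monocytes in that comparison. Without a filter, 1 member was lower in monocytes and 10 higher in B16 TAM for OMV-SIRP-G against OMV-SIRP, and 1 higher and 4 lower in MC38 TAM for OMV-SIRP-G against PBS. With a minimum of 5 FPKM, OMV-SIRP-G against PBS gave 1 member higher in GMP (median -0.45) and 5 higher in MC38 TAM, and OMV-SIRP-G against OMV-SIRP gave 4 higher and 5 lower in GMP (median -0.13) in place of 10 and 4, with fewer members tested.

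Scaled to total reads, medians of the members against PBS were -0.53 and -0.43 in GMP, -0.96 and -1.27 in monocytes, 0.027 in B16 TAM after OMV-SIRP, and -0.88 and -0.38 in MC38 TAM, where 17 were lower after OMV-SIRP. For OMV-SIRP-G against OMV-SIRP they were 0.073 in GMP, with 2 lower, and -0.21 in monocytes, with 1 lower. Over all genes 2332 were called in MC38 TAM after OMV-SIRP with this scaling, 29.9% of them higher. Voom gave medians of -0.52 and -0.48 in GMP and -1.25 and -1.44 in monocytes against PBS, -0.13 in MC38 TAM after OMV-SIRP-G and 0.61 in B16 TAM between treatments, with 1 member higher in monocytes between treatments and 2 and 5 higher in MC38 TAM against PBS. Over all genes voom called 1673 and 3113 in MC38 TAM against PBS, 64.8% and 67.2% of them higher. With the 2 compared groups alone, 3 members were higher and 10 lower in monocytes and 11 higher in B16 TAM between treatments, and 2 lower in MC38 TAM after OMV-SIRP.

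Same-numbered libraries did not deviate together in every pair (correlations of -0.37 to 0.25). With 3 libraries per group these values cannot decide whether such libraries are matched, and the sources used here do not say. With a replicate block, 0 members were lower in monocytes between treatments, and 2 and 5 lower in MC38 TAM after OMV-SIRP and OMV-SIRP-G, and the genes called in monocytes after OMV-SIRP went from 1026 to 520. With MC38 TAM PBS 3 and OMV-SIRP 2 both left out, a setting chosen after seeing the data, 3 members were higher and 13 lower after OMV-SIRP, 5 higher after OMV-SIRP-G and 2 higher between treatments. Over all genes 2042, 4701 and 644 were called there, in place of 1534, 2809 and 54.

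Leaving out 1 library gave these ranges. GMP: median -0.46 to -0.42 after OMV-SIRP; between treatments 2 to 3 members lower, median -0.0065 to 0.059. Monocytes: 20 to 37 lower, median -1.24 to -1.06, after OMV-SIRP, and 23 to 37 lower, median -1.38 to -1.27, after OMV-SIRP-G; 0 lower between treatments. B16 TAM: median 0.029 to 0.095 after OMV-SIRP, 14 to 20 higher after OMV-SIRP-G and 9 to 13 higher between treatments. MC38 TAM: 0 to 2 higher and 1 to 8 lower, median -0.64 to -0.32, after OMV-SIRP, and 0 to 4 higher and 3 to 8 lower, median -0.33 to -0.14, after OMV-SIRP-G. Samd9l in monocytes, not called with all libraries, ranged from -0.30 (without PBS 2) to 0.27 after OMV-SIRP-G. Genes called over the whole table ranged, without 1 library, from 366 to 3563 (without PBS 2) in monocytes after OMV-SIRP and from 0 to 189 in MC38 TAM between treatments. The cause of these shifts was not tested. Members at low FPKM, such as Ifit3b, rest on few reads, so small changes in them were not detectable.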
